A study of Mus musculus with 6 samples.

Results

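The genes described here encode the ATP synthase of mitochondria (F-type, symbols starting with Atp5, with its inhibitor Atpif1) and the proton ATPase of vesicles and lysosomes (V-type, symbols starting with Atp6). They were found by symbol among probe sets with 1 gene symbol, and each gene was read from its brightest probe set over the 6 arrays. The search gave 40 genes of the 18193 named on the array, 18 F-type and 22 V-type, with 81 probe sets in all. All 18 F-type genes and 18 of the 22 V-type genes were bright enough to be tested. In the striatum of PGC-1alpha null mice, 17 of 18 F-type genes read lower than in wild-type mice, with a median difference of -0.21 on the log2 scale. V-type genes showed no such shift, with 6 of 18 lower and a median of 0.037. No member of either family passed the threshold on its own.

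The F-type enzyme uses the proton gradient across the inner mitochondrial membrane to make ATP. Protons turn a ring of c subunits in the membrane, the ring turns a central stalk inside the catalytic head, and a peripheral stalk holds the head still. The V-type enzyme is built on the same plan but runs the other way, spending ATP to acidify lysosomes and synaptic vesicles. In nerve terminals that gradient drives the loading of transmitter. PGC-1alpha, encoded by Ppargc1a, is a coactivator that works through factors such as the nuclear respiratory factors and the estrogen-related receptors on genes of mitochondrial respiration.

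The KO mice carried a null PGC-1a allele on both chromosomes (PGC-1a-/-) and the WT mice carried none (PGC-1a+/+). Both came from heterozygous (PGC-1a+/-) founders, all were female and 6 months old, and 3 mice of each genotype gave 1 striatal array apiece. The labels name no promoter or cell type that would limit the deletion, and the part of the gene that was altered is not stated in the sources used here. One label differs: KO 3 is given as cytoplasmic RNA and the other 5 as total RNA, and values without KO 3 are given where the family results are stated. Each of the 5 Ppargc1a probe sets separated the genotypes with KO lower, and log2 differences ran from -1.93 to -1.12. Of 10 medium spiny neuron genes, the markers of striatum, 8 were found and all 8 were bright enough to test, with summed signals of 27536 to 30494 in KO and 25845 to 30567 in WT. Values are MAS5 signals with the same trimmed mean on every array, so a difference is relative to the other transcripts measured. In whole tissue, fewer cells of a type and less RNA per cell cannot be told apart. The arrays read RNA, and protein was not measured.

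The F-type genes other than Atp5md read lower, by differences of -0.31 to -0.081. Of the 18, 15 had an unadjusted p under 0.05 in limma and were lower in KO, against 5.61% of all 12323 named genes tested, and 0 were higher at that p, against 4.12%. In 15 of the 18 the KO and WT mice did not overlap, with KO lower, against 8.48% of named genes. Adjusted over all 27022 probe sets tested, 0 of 18 passed an adjusted p of 0.05 in limma. That threshold was passed by 0.446% of named genes and by 0.47% of probe sets, 0.292% lower and 0.178% higher in KO. With 3 mice against 3, a two-sided exact permutation test of 1 gene cannot go below 0.1. The median difference of -0.21 is a signal change of -13.4%, beside a median of -0.0069 for all named genes. The F-type genes are bright, with mean signals from 1054 to 5601, so genes of like brightness were read as well. Among the 1199 named genes with a mean signal above 1000, 46.4% were lower in KO, 9.01% were lower at an unadjusted p under 0.05, 11.2% were lower without overlap and 9.09% higher without overlap. Without KO 3 the F-type median was -0.20, with 17 of 18 genes lower.

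**Figure D1:**
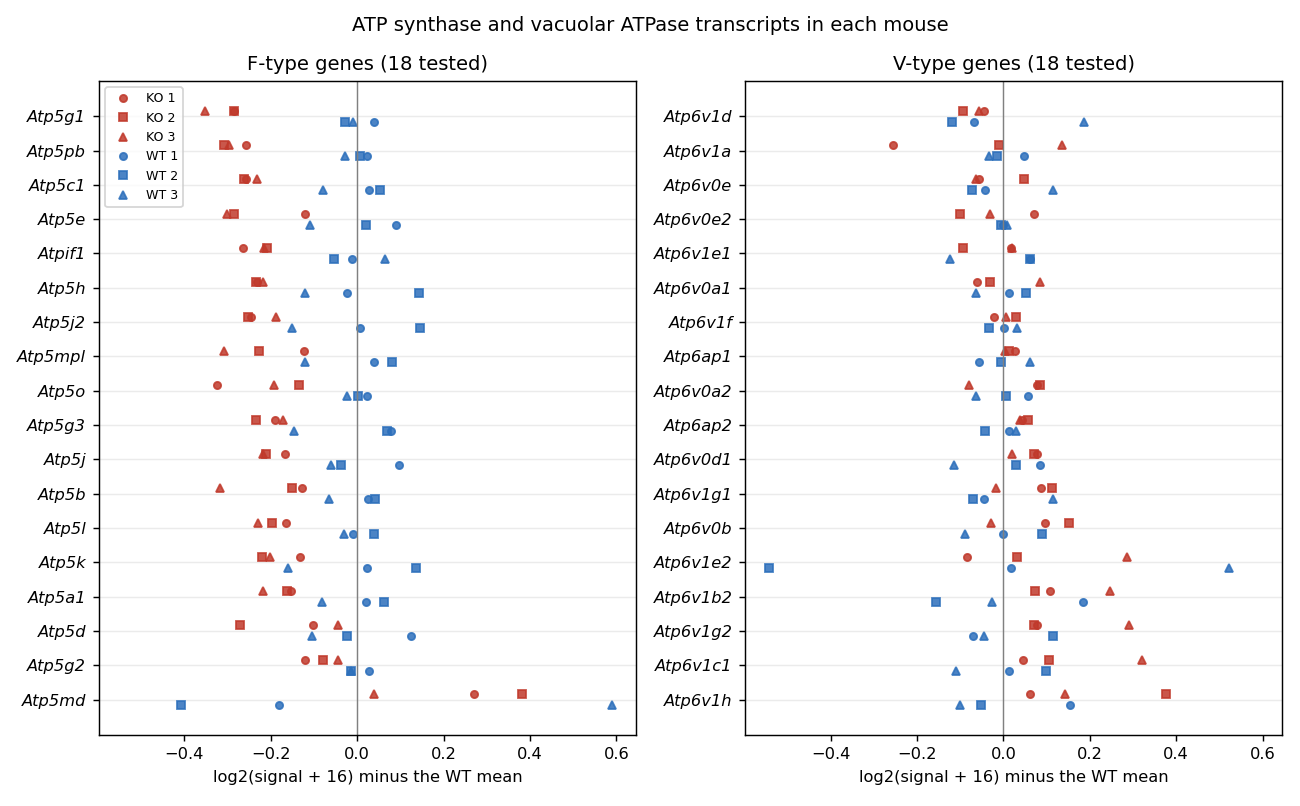
Log2(signal + 16) of each tested F-type gene (left) and V-type gene (right) in each mouse, relative to the mean of the 3 WT mice. KO mice are red and WT mice blue, symbols stand for mice 1 to 3, and genes are ordered by their KO minus WT difference, the lowest uppermost. KO points lie left of WT points in 15 of the 18 F-type rows, and the groups overlap in 17 of the 18 V-type rows.

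Each mouse was also given 1 value per family, the median over genes of its log2 difference from the WT mean. For F-type genes this was -0.17, -0.22 and -0.22 in KO mice, against 0.025, 0.030 and -0.073 in WT mice. All 3 KO mice lay below all 3 WT mice, and the nearest pair was KO 1 and WT 3. WT 3 had the lowest signal of the WT mice in 14 of 18 F-type genes. It was also the lowest WT mouse over bright genes in general, whose median there was -0.041, with 0.0054 in WT 1 and 0.030 in WT 2. Without WT 3 the F-type median difference was -0.25, without WT 1 it was -0.20 and without WT 2 it was -0.18.

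The promoters of these genes were searched for the motifs of 3 kinds of factor known to act with PGC-1alpha and for 3 other motifs, and 5 windows are printed as examples with and without matches to the partner motifs. They come from RefSeq on GRCm38.p6 and run from 250 bases before to 50 bases after the gene start, 5' to 3' on the gene's strand. Capitals mark every match to the 6 motifs searched on both strands, which were TCAAGGTCA (estrogen-related receptor), GCGCA and GCGC with 1 free base between them (NRF1), CCGGAAG (GABP), GGGCGG (Sp1), CACGTG (E-box) and the E-box with GT before and AC after it (CLEAR, a motif of lysosomal genes, of which each match is also an E-box match). Atp5pb and Atp5g1 are shown as the F-type genes with the smallest p, Atp5g3 and Atp5h for matches to the PGC-1alpha partner motifs, and Atp6v0d1 as a V-type gene with an NRF1 match.
Atp5pb (chr3:105959214-105959513, minus strand): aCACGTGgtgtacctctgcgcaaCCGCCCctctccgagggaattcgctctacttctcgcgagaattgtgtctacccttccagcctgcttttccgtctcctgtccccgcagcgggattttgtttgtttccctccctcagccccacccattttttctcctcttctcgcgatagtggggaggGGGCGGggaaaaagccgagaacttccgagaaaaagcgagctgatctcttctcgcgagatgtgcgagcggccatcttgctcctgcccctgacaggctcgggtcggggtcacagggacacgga
Atp5g1 (chr11:96075582-96075881, minus strand): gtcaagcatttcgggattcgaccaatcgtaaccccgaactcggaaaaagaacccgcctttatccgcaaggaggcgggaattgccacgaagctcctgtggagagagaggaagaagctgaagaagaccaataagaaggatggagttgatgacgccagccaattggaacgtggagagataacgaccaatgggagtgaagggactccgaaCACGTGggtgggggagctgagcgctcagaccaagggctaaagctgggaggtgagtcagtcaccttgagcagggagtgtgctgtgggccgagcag
Atp5g3 (chr2:73911277-73911576, minus strand): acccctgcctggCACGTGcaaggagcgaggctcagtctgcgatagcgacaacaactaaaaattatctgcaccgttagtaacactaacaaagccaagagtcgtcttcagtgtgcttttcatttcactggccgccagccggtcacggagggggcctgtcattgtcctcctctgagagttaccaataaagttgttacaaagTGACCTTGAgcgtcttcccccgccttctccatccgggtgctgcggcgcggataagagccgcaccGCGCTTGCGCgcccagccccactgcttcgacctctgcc
Atp5h (chr11:115419870-115420169, minus strand): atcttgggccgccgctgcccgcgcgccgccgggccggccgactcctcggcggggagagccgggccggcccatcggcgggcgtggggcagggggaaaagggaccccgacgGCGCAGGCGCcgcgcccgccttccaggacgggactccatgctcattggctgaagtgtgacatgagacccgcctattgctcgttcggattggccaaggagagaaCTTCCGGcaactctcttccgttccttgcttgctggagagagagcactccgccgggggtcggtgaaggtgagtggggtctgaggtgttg
Atp6v0d1 (chr8:105566015-105566314, minus strand): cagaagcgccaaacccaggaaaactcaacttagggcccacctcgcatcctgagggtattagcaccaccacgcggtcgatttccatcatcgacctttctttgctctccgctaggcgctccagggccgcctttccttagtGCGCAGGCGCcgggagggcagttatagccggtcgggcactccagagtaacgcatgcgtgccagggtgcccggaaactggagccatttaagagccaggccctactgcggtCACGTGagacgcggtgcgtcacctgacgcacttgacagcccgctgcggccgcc

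Windows were found for 16 of 18 F-type genes and 16 of 22 V-type genes, and those of Atp5a1, Atp5mpl, Atp6v0a2, Atp6v0d2, Atp6v1b2, Atp6v1c1, Atp6v1g1 and Atp6v1h were not in the table. The NRF1 motif was in 7 of 16 F-type genes (43.8%), namely Atp5c1, Atp5g2, Atp5g3, Atp5h, Atp5k, Atp5o and Atpif1, and in 2 of 16 V-type genes (12.5%), Atp6v0d1 and Atp6v1e1. It was in 15% of genes with a mean signal above 1000 and in 5.19% of all 27025 genes with a window. The GABP motif was in 6 of 16 F-type genes and 4 of 16 V-type genes, against 17.6% of bright genes and 9.93% of all genes. The estrogen-related receptor motif was found in Atp5g3 alone among all 32 member genes with a window, and in 0.466% of all genes. In Atp5g3 it reads on the strand opposite to the one printed, and the marked stretch begins 52 bases before the start. The Sp1 motif was in 7 of 16 F-type genes (43.8%) and 11 of 16 V-type genes (68.8%), against 70% of bright genes and 38.2% of all genes. The E-box was in 5 of 16 F-type genes (31.2%) and 4 of 16 V-type genes (25%), against 13.9% of bright genes and 8.09% of all genes. CLEAR was in 0 of both families, 1.24% of bright genes and 0.37% of all genes.

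The 7 F-type genes with an NRF1 match had a median difference of -0.22 (range -0.25 to -0.081) and the 9 without one -0.20 (range -0.31 to 0.23), so that the ranges overlapped. For GABP the 6 genes with a match had a median of -0.20 and the 10 without one -0.22, and Atp5g3, with the estrogen-related receptor match, differed by -0.20, beside a median of -0.22 for the 15 genes without it. Atp5pb and Atp5g1, the genes with the smallest p, had no match to the NRF1, GABP or estrogen-related receptor motifs in these windows. A match is a description of letters and not a bound site.

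**Figure D2:**
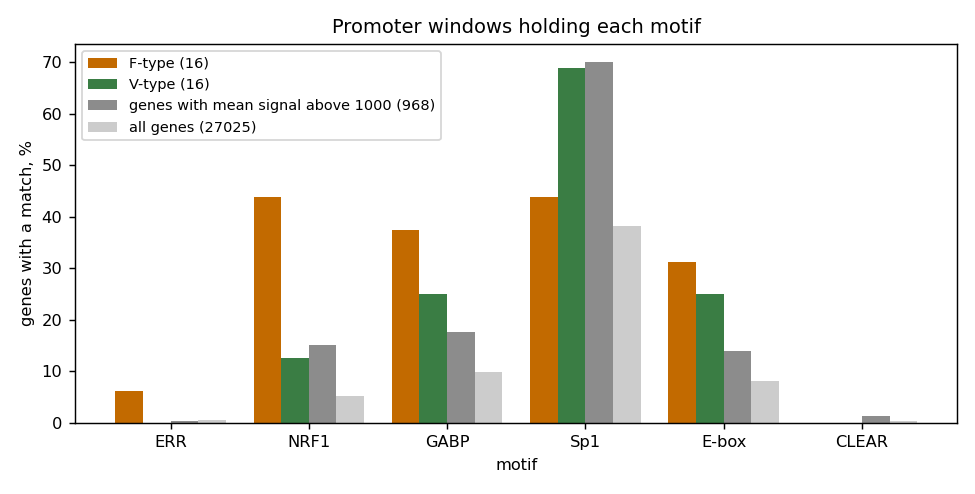
Share of genes (vertical axis, percent) whose promoter window holds each motif (horizontal axis), for F-type, V-type, bright and all genes, with the number of genes in brackets. The NRF1 bar stands at 43.8% for F-type and 12.5% for V-type genes, and the Sp1 bar at 43.8% for F-type and 68.8% for V-type genes.

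Transcripts of the catalytic head and central stalk were lower for all 5 of their measured subunits. Atp5b, the beta subunit that carries the catalytic sites, averaged 4617 ± 328 in KO and 5293 ± 211 in WT (SD, n = 3 each), a log2 difference of -0.20 (SE 0.071). Atp5a1, the alpha subunit, differed by -0.18 (SE 0.066). Both had groups that did not overlap in the probe set read. A further Atp5a1 probe set of similar signal gave -0.091 (SE 0.082) with overlapping groups. Atp5c1, the gamma subunit whose rotation drives catalysis, read 3388, 3374 and 3448 in KO mice, against 4129, 4200 and 3835 in WT mice. The KO mice lay close together and below every WT mouse, with a difference of -0.25 (SE 0.064, limma adjusted p = 0.168). Atp5e, the epsilon subunit, differed by -0.24 (SE 0.080) without overlap. Atp5d, the delta subunit, differed by -0.14 (SE 0.081), and its groups overlapped. This was -0.073 without KO 2 and -0.077 without WT 1. A second Atp5d probe set, of lower signal, gave -0.062 (SE 0.076) with overlap.

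The peripheral stalk keeps the head from turning with the rotor. Transcripts of all 4 of its subunits were lower, each without overlap, with a median of -0.22. Atp5pb, the b subunit, read 4248, 4098 and 4131 in KO mice, against 5154, 5099 and 4977 in WT mice. The gap between the groups was wider than the spread within either. The difference was -0.29 (SE 0.060), and its limma adjusted p of 0.0745 was the smallest of all members. Over the alternatives tried it ran from 0.0614 to 0.441 and stayed above the threshold. A second probe set for Atp5pb gave -0.17. Atp5h, the d subunit, read 5161, 5153 and 5207 in KO mice, against 5968, 6699 and 5578 in WT mice, so that most of its spread lay among WT mice. The difference was -0.23 (SE 0.073, limma adjusted p = 0.312), and a second probe set also gave -0.23. Atp5o, the subunit that confers oligomycin sensitivity, differed by -0.22, and Atp5j, a coupling factor of the stalk, by -0.20.

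The c-ring is made from 3 genes, Atp5g1, Atp5g2 and Atp5g3, whose mature proteins are the same and whose import sequences differ. All 3 were lower without overlap. Atp5g1 read 960, 961 and 917 in KO mice, against 1206, 1152 and 1166 in WT mice. All KO mice were well below all WT mice, with a difference of -0.31 (SE 0.070, limma adjusted p = 0.103), the largest among the F-type genes. Atp5g3 differed by -0.20 (SE 0.073). Atp5g2 averaged 1473 ± 39.6 in KO and 1559 ± 26.2 in WT (SD, n = 3 each), a difference of -0.081 (SE 0.066, limma adjusted p = 0.771). The difference between the c-ring genes was not tested. Dim second probe sets for Atp5g1 and Atp5g2 gave 0.080 and -0.44, with overlapping groups.

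Among the small membrane subunits, 4 of 5 were lower and Atp5md was the exception. Atp5l, the g subunit, which helps pair ATP synthases along the cristae, read 2241, 2190 and 2141 in KO mice, against 2500, 2584 and 2462 in WT mice. The groups were separate, with a difference of -0.20 (SE 0.064, limma adjusted p = 0.314). Atp5j2, the f subunit, differed by -0.23 and Atp5mpl, a small proteolipid, by -0.22, both without overlap. Atp5k, the e subunit, differed by -0.18 with overlap, because KO 1 (3124) read above WT 3 (3065), and by -0.12 without WT 2. Atp5md, a small subunit of the dimer also known as Usmg5, was singled out after its values were seen. It read 3507, 3788 and 2982 in KO mice, against 2557, 2185 and 4376 in WT mice. WT 3 was the highest of all 6 mice and WT 1 and WT 2 the lowest. The difference was 0.23 (SE 0.19, limma adjusted p = 0.774), and without WT 3 it was 0.53 (adjusted p = 0.0726). Without WT 2 it was 0.027. No second probe set was read for Atp5md.

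Atpif1 encodes the inhibitor that blocks ATP hydrolysis by the synthase when the proton gradient collapses. Its transcript was lower, as were those of most subunits. It read 1793, 1863 and 1854 in KO mice, against 2138, 2077 and 2255 in WT mice. The groups did not overlap, and the difference was -0.23 (SE 0.066, limma adjusted p = 0.240). A dimmer second probe set gave the same difference of -0.23 with a larger error (SE 0.17).

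**Figure D3:**
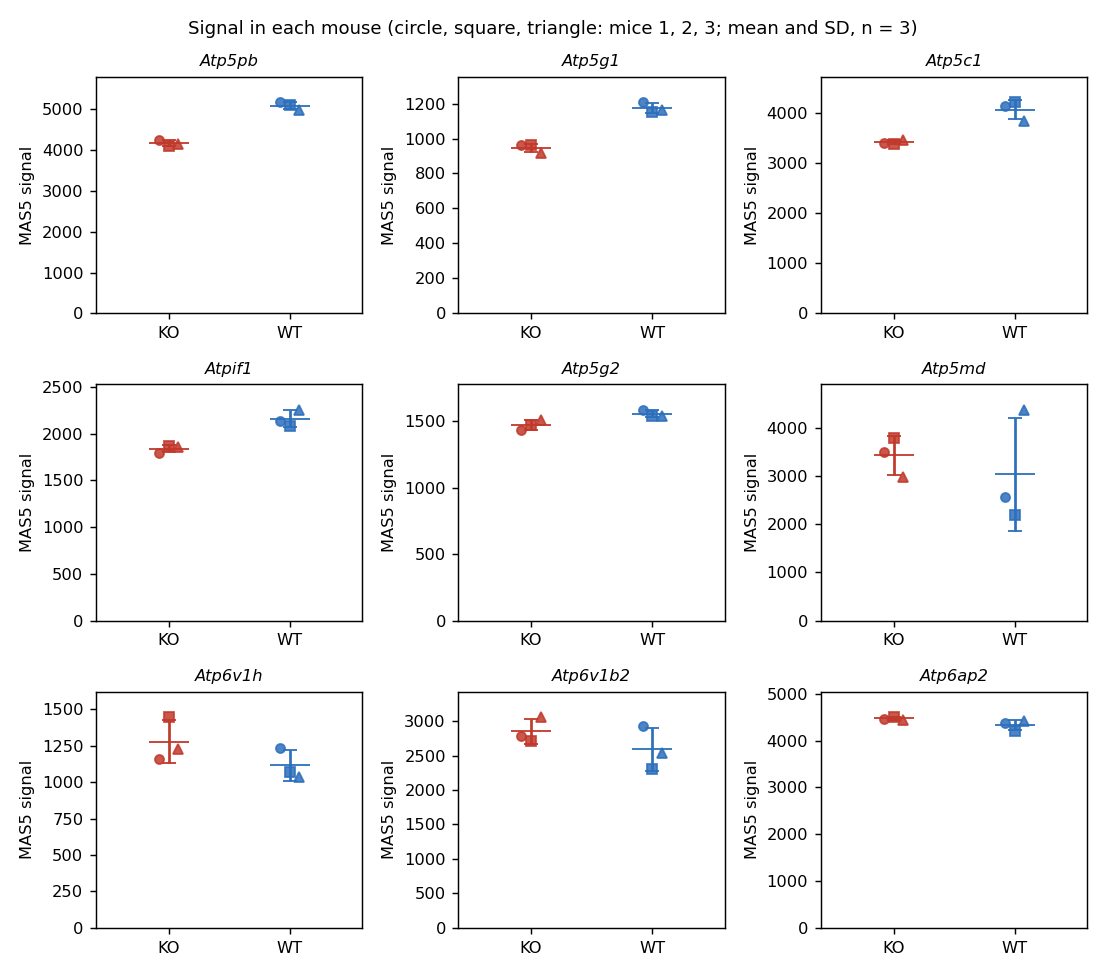
MAS5 signal (vertical axes from 0) of 6 F-type genes (Atp5pb, Atp5g1, Atp5c1, Atpif1, Atp5g2, Atp5md) and 3 V-type genes (Atp6v1h, Atp6v1b2, Atp6ap2) in KO and WT mice. Points are mice, bars the mean and SD. Atp5pb, Atp5g1, Atp5c1 and Atpif1 are lower in every KO mouse, while Atp5md is spread over 2185 to 4376 in WT mice.

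Other probe sets of the same F-type genes were read too. Of the 14 further F-type probe sets tested, which cover 11 genes, 13 were lower, with a median of -0.17 and a dim Atp5g1 probe set as the exception. Probe sets whose name carries an s or x can match several transcripts, and several Atp5 genes have near-identical pseudogenes. Without the s and x probe sets, 20 of 22 F-type probe sets were lower, with a median of -0.20.

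The V-type genes did not share the shift. Of the 18 tested, 0 passed in limma after adjustment, 0 had an unadjusted p under 0.05, and 17 had overlapping groups. Among the 12323 named genes tested, 10460 had overlapping groups, and 5.61% were lower and 4.12% higher at that p in limma. These V-type counts are near those shares. Differences ran from -0.065 to 0.19. The median was 0.037, or 2.56% in signal, and 0.035 without KO 3. It was 0.081 with each array centred on its median, where 1 of 18 genes was lower, and 0.012 with all probe sets of a gene averaged. Per mouse, V-type medians were 0.044, 0.052 and 0.020 in KO mice, against 0.012, -0.0099 and -0.031 in WT mice. KO mice were higher by a small margin with no overlap. The 18 further V-type probe sets had 11 lower and a median of -0.026.

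In the V1 head, which binds and splits ATP, 7 of 10 tested genes were higher. Atp6v1h, a regulatory subunit, had the largest difference. It read 1162, 1449 and 1228 in KO mice, against 1239, 1072 and 1036 in WT mice. The groups overlapped, with KO 2 apart from the other KO mice, and the difference was 0.19 (SE 0.096, limma adjusted p = 0.586), or 0.10 without KO 2. Atp6v1c1, the C subunit that joins head and membrane part, read 2172, 2265 and 2633 in KO mice, against 2124, 2253 and 1948 in WT mice, a difference of 0.16 (SE 0.085, limma adjusted p = 0.633). This was 0.075 without KO 3 and 0.10 without WT 3. Its other probe sets went the opposite way, one by -0.21 without overlap (limma unadjusted p = 0.0138, adjusted p = 0.361) and one by -0.14, so its place among the higher genes rests on the probe set read. Atp6v1g2, the G subunit isoform of neurons, read 2435, 2425 and 2827 in KO mice, against 2198, 2501 and 2234 in WT mice. KO 3 was the highest of the 6 mice, and the difference was 0.15 (SE 0.081, limma adjusted p = 0.639), or 0.074 without KO 3. Atp6v1b2, the B subunit isoform of brain, read 2781, 2712 and 3060 in KO mice, against 2930, 2312 and 2530 in WT mice. Its groups overlapped, with a difference of 0.14 (SE 0.088, limma adjusted p = 0.690), and a second probe set gave -0.032. The difference was 0.090 without KO 3, 0.064 without WT 2 and 0.23 without WT 1. Atp6v1g1, the widely expressed G isoform, read 2006, 2043 and 1864 in KO mice, against 1828, 1798 and 2046 in WT mice, a difference of 0.061 (SE 0.074, limma adjusted p = 0.862) that ran from 0.026 without WT 2 to 0.12 without WT 3. A second tested probe set for Atp6v1g1 gave -0.069. Atp6v1a, the catalytic A subunit, differed by -0.043 (SE 0.092), and a second probe set gave 0.060. Atp6v1d, a subunit of the rotor, differed by -0.065 and Atp6v1e1, of the stator, by -0.019, both with overlap. Atp6v1f was the closest to no difference among the V1 genes, at 1494 ± 26.6 in KO and 1490 ± 34.3 in WT (SD, n = 3 each).

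In the V0 membrane part, through which protons pass, 3 of 6 tested genes were higher and 3 lower. Atp6v0c, also of V0, and Atp6v1g3, of V1, were not among the V-type genes found by symbol. Atp6v0b, a proteolipid of the rotor ring, read 1481, 1541 and 1357 in KO mice, against 1385, 1474 and 1302 in WT mice. The ranges crossed over most of their length, with a difference of 0.073 (SE 0.077, limma adjusted p = 0.836) that ran from 0.028 without WT 3 to 0.12 without KO 3. Its other probe sets gave -0.043 and 0.12, with overlap. Atp6v0a1, the a subunit isoform of synaptic vesicles, averaged 722 ± 39.5 in KO and 723 ± 30.1 in WT (SD, n = 3 each). Atp6v0d1, whose promoter is printed above, differed by 0.056, Atp6v0a2 by 0.027, Atp6v0e by -0.024 and Atp6v0e2 by -0.020. The accessory subunit Atp6ap1 differed by 0.015 and Atp6ap2 by 0.046. Atp6ap2, also known as the prorenin receptor, was the V-type gene whose groups did not overlap in the probe set read. It read 4465, 4508 and 4451 in KO mice, against 4371, 4211 and 4424 in WT mice (limma adjusted p = 0.876). Its other probe sets gave 0.063 and 0.11, with overlap. Non-overlap with KO higher was seen in 6.64% of named genes.

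The isoforms of Atp6 genes known from epithelia and bone were not bright enough to test. Atp6v1b1, Atp6v0a4, Atp6v0d2 and Atp6v1c2 had mean signals between 3.07 and 26.5 in KO and between 3.67 and 24.6 in WT, below the filter signal of 26.8 on average. Atp6v1e2, the E isoform of testis, lay just above the filter at 29.6 ± 6.13 in KO and 28.9 ± 16.1 in WT (SD, n = 3 each), and its difference of 0.078 (SE 0.27) is uncertain.

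Set against each other within each mouse, F-type minus V-type medians were -0.21, -0.28 and -0.24 in KO mice, against 0.012, 0.040 and -0.042 in WT mice. The mean was -0.24 ± 0.033 in KO mice and 0.0034 ± 0.042 in WT mice (SD, n = 3 each), and the groups did not overlap. A shift common to all genes of an array cancels in this contrast. The difference of the family medians was -0.23 without KO 3, -0.20 without WT 2 and -0.28 without WT 3. No p is given for these medians because the gene families were chosen with results of these mice known.

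**Figure D4:**
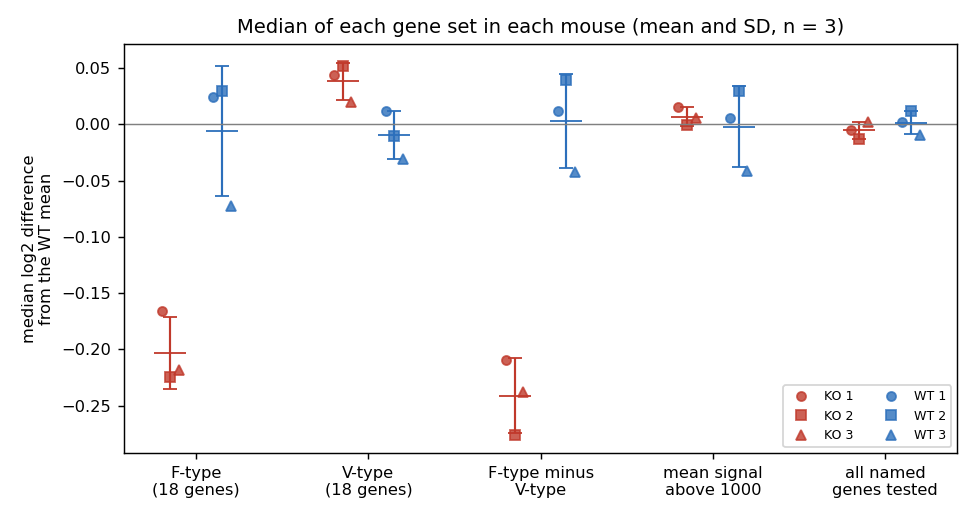
Median log2 difference from the WT mean (vertical axis) in each mouse for the 18 F-type genes, the 18 V-type genes, their contrast, genes with a mean signal above 1000 and all named genes tested. Symbols are mice, bars the mean and SD. F-type medians lie between -0.22 and -0.17 in KO mice and between -0.073 and 0.030 in WT mice, while V-type medians stay between -0.031 and 0.052 over both genotypes.

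**Figure D5:**
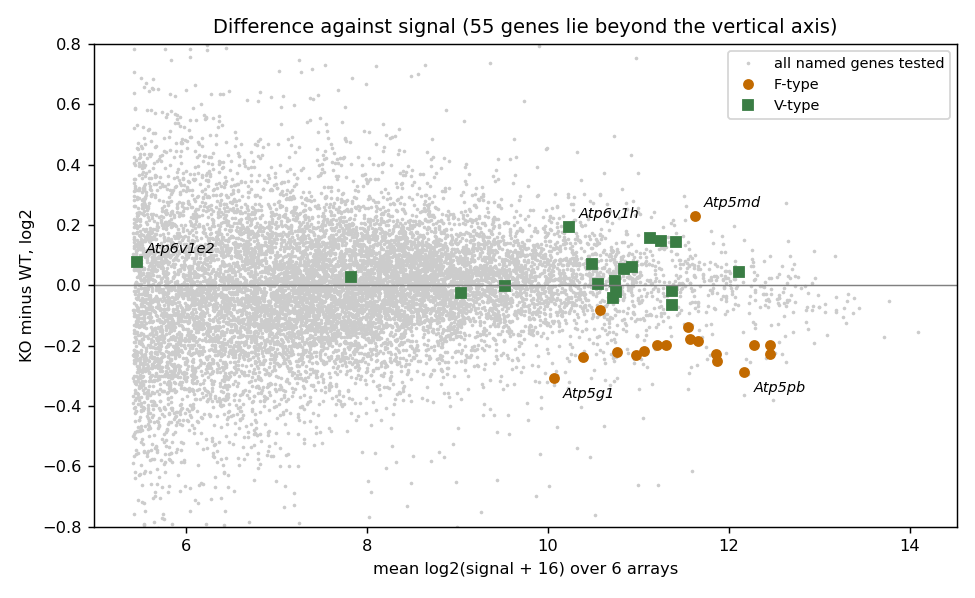
KO minus WT difference (vertical axis, log2) against mean log2(signal + 16) over 6 arrays (horizontal axis) for all 12323 named genes tested, with F-type and V-type genes marked. F-type genes lie below 0 except Atp5md, and V-type genes of similar signal lie around 0. Of the 12323 genes, 55 lie beyond the vertical axis and are not drawn.

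Genes that work beside the synthase were read as well. Of 6 assembly factors and carriers, 5 were lower, with a median of -0.21, and 0 passed in limma after adjustment, while 3, all lower, had an unadjusted p under 0.05. Of all named genes 5.61%, and of bright ones 9.01%, were lower at that p. Slc25a4, the ADP/ATP carrier that exchanges the product of the synthase for its substrate, read 4187, 4209 and 4451 in KO mice, against 5117, 5123 and 4992 in WT mice. The groups were separate, with a difference of -0.25 (SE 0.062, limma adjusted p = 0.153). Its relative Slc25a5 differed by -0.24, the phosphate carrier Slc25a3 by -0.14 and the assembly factor Atpaf1 by -0.26, each without overlap. Tmem70, an assembly factor that helps build the c-ring, was higher without overlap, at 577 ± 16.7 in KO and 521 ± 14.9 in WT (SD, n = 3 each), a difference of 0.14 (SE 0.079, limma adjusted p = 0.633).

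Partners and assembly factors of the V-type enzyme gave 6 higher and 5 lower of 11, with a median of 0.091. None passed in limma after adjustment, and 2, both higher, had an unadjusted p under 0.05, which 4.12% of named genes had with KO higher. Dmxl2, a rabconnectin that helps assemble the pump on synaptic vesicles, read 1639, 1651 and 1978 in KO mice, against 1471, 1426 and 1448 in WT mice. All KO mice were higher, with KO 3 apart from the others, and the difference was 0.27 (SE 0.082, limma adjusted p = 0.269). Its partner Wdr7 differed by 0.091 without overlap, and Rnasek, a small protein bound to the pump, by 0.30. Tcirg1, an a subunit isoform of V0 that does not carry an Atp6 symbol, differed by -0.11 with overlap.

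Markers of other cells were read in the same arrays. Of 5 choroid plexus markers, 2 were bright enough to test, Ttr and Clic6, while Kl, Folr1 and Aqp1 lay below the filter. Ttr was called higher in KO in limma (difference 0.91, adjusted p = 0.0347), whereas Clic6 had overlapping groups (difference 0.18, limma adjusted p = 0.732). Their summed signal, most of it Ttr, was 2812 to 3866 in KO and 1480 to 2387 in WT. Oligodendrocyte genes were lower in 5 of 5 tested, by a median of -0.18, with 0 called in limma. Mag alone was lower at an unadjusted p under 0.05, as 5.61% of all named genes were. It differed by -0.43 without overlap (limma adjusted p = 0.109), and the other oligodendrocyte genes had overlapping groups. The sums, to which Mbp gave the most, overlapped at 22886 to 25039 in KO and 23552 to 28543 in WT. General neuron genes were lower in 7 of 10 with a median of -0.063, and their sums overlapped at 25128 to 27024 in KO and 25271 to 27547 in WT. Interneuron genes were lower in 3 of 6 tested, with a median of -0.16 and sums of 3159 to 3692 in KO and 3476 to 4515 in WT, which overlapped. The 3 lower ones, Syt2 (-0.78, without overlap), Pvalb (-0.64) and Kcnc1 (-0.34), had an unadjusted p under 0.05 in limma and did not pass after adjustment. Of all named genes 5.61% were lower at that p. Sst (0.15), Npy (0.025) and Slc18a3 (0.094) were higher with overlap. The list joins several kinds of interneuron. Sums over cortical, astrocyte, microglial and endothelial markers overlapped too. The part of these cells in the F-type and V-type results was not tested.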

How the data were processed

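Striatal RNA of 3 KO and 3 WT mice was hybridised to 1 Affymetrix array each, and groups were taken from the sample titles. The deposited intensity values are 1 MAS5 signal per probe set and array, per the submitters' processing notes. The version of MAS5 is not stated in the sources used here. Of 45101 probe sets, 64 controls were left out. The platform annotation gave 1 symbol for 34945 probe sets, several for 932 and none for 9160, and symbols were updated through a GRCm38.p6 gene table. Analysis used log2(signal + 16), on which changes of dim transcripts come out too small. The dimmest 40% by mean log2 value, up to a signal of 26.8, were not tested, leaving 27022 probe sets. KO and WT were compared with limma 3.58.1 in R 4.3.3 (lmFit, eBayes with an intensity trend), with Benjamini-Hochberg adjustment over all tested probe sets. The procedure was also run on simulated data. The changes simulated there were larger than the F-type differences and the probe sets varied independently, so that run does not test the family results. The replicates are separate mice, and 3 per group limit the precision of each value. No array's values repeated another's.

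The members, pathway and marker lists and motifs were chosen with earlier results of these data known. Values of every mouse are given for the 6 genes of each family with the smallest p, for Atpif1, and for some others described by role or chosen after their values were seen. Alternatives were quantile normalization, median centring, other offsets (1, 64), other filters (none, 60th percentile), eBayes with no trend, a replicate block, averaging all probe sets of each gene, and dropping each mouse in turn. Deviations of same-numbered KO and WT mice from their group means correlated at -0.0091, -0.035 and 0.017. Those of differently numbered mice ran from -0.041 to 0.049. The same-numbered pairs did not stand out, but such values cannot show whether mice were paired by litter or handling.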

Additional observations from a re-analysis of the deposited data

How the results depend on the processing

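In all 15 alternatives 17 of 18 F-type genes stayed lower and Atp5md higher, and in the 14 that give a p no member passed the threshold, the smallest adjusted p being 0.0614 for Atp5pb with a filter at the 60th percentile. The F-type median ran from -0.25 to -0.16 and the V-type median from 0.012 to 0.081. The V-type median moved to 0.081 with median centring, where 17 of 18 V-type genes were higher, and to 0.012 with probe sets averaged. Probe sets called, 127 in all, numbered 52 with no filter and 25 with no intensity trend, and leaving out a mouse gave 65 (KO 1) to 102 (WT 1), with 73 without KO 2 and 70 without WT 2. The difference between the family medians then ran from -0.28 to -0.20. With the replicate block 100 probe sets were called and the adjusted p of Atp5pb was 0.243, no member changing its call. Atp6v1e2 was not tested with the 60th percentile filter.

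V-type differences near 0 changed sign. Quantile normalization gave -0.0038 for Atp6v1f. Median centring gave 0.042 for Atp6v0a1, 0.020 for Atp6v0e, 0.024 for Atp6v0e2, 0.0010 for Atp6v1a and 0.026 for Atp6v1e1. Averaging probe sets gave 0.0086 for Atp6v1a, -0.063 for Atp6v1c1 and -0.0040 for Atp6v1g1. Leaving out each mouse gave ranges of -0.046 to 0.027 for Atp6v0a1, -0.13 to 0.063 for Atp6v1a, -0.0041 to 0.081 for Atp6v0a2, -0.066 to 0.020 for Atp6v0e2, -0.080 to 0.019 for Atp6v1e1, -0.012 to 0.021 for Atp6v1f, -0.19 to 0.34 for Atp6v1e2, -0.014 to 0.046 for Atp6ap1, -0.0011 to 0.098 for Atp6v0d1, -0.060 to 0.034 for Atp6v0e and -0.12 to 0.029 for Atp6v1d. The causes were not tested.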
